A study of Homo sapiens with 30 samples.

Results

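The comparison described here sets doxorubicin-resistant SUM190 cells against parental SUM190 cells, both kept in DMSO, the drug vehicle, with no drug added. Its line means come from 4 of the 30 RNA-seq libraries of the series, 2 of each line, and all 30 set each gene's spread. It covers 12743 of 20114 genes. These had at least 1 CPM (read counts scaled by library size) in at least 2 of the 30 libraries. Each sample was SUM190, an established human line of inflammatory breast cancer with amplified ERBB2, either as the parental line (Par_DMSO) or as its doxorubicin-resistant derivative (DR_DMSO). Cells were given DMSO 24 h after seeding, and RNA was taken after 72 h more. Other libraries of the series served as a check beside the members: both lines in 1 µM doxorubicin, resistant cells in 350 nM doxorubicin, and paclitaxel-resistant SUM190 cells in DMSO. The labels do not say how the resistant line was selected, whether it is a clone or a pool, or whether replicates 1 and 2 came from separate cultures. The p-values therefore reflect only the spread among libraries, and part of it may be technical.

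Doxorubicin is an anthracycline that slips between DNA bases, traps topoisomerase II on cut DNA and can cycle through a semiquinone that yields reactive oxygen. Cells are known to withstand it by pumping it out, by reducing its carbonyl group, by scavenging oxidants, by changing the level of topoisomerase II, or by tolerating DNA damage. Because neither line was exposed to the drug during these 72 h, the comparison asks how the lines differ at baseline.

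The libraries held 26333166 and 32669995 reads in genes for parental replicates 1 and 2, and 26711117 and 26404788 for resistant replicates 1 and 2. The detection floor of 3 reads corresponds to 0.0967 to 0.121 CPM here, for counting error only. The resistant replicates lay closer together than the parental ones. The median absolute difference between replicates was 0.0705 on the log2 scale in resistant cells and 0.211 in parental cells. The parental difference followed the GC content of transcripts (Spearman 0.79 across genes, which are not independent), the resistant difference less so (-0.26), and the difference between the lines hardly at all (-0.05). All 4 libraries had the markers of HER2-amplified epithelial cells: ERBB2 stood at 2469 to 3140.3 CPM and the epithelial adhesion molecule EPCAM at 338 to 404 CPM. Markers of stromal, endothelial and immune cells were at most 0.65 CPM, PGR was at 0 in all 4 libraries, and only COL1A1 (6.31 to 11.1 CPM) and CDH5 (1.33 to 3.00 CPM) stood above that. COL1A1 rose (0.59, not called without parental replicate 1) and CDH5 fell (-0.57, not called without parental replicate 2 or without either resistant replicate). In bulk RNA, fewer cells of a type and less RNA per cell cannot be told apart.

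Log2 changes below are resistant minus parental on the deposited log2(CPM + 1) scale, which understates the change of genes with few reads. Values after ± are standard errors. "Rose" and "fell" are used for genes with a Benjamini-Hochberg adjusted p under 0.05 over all 12743 genes in limma. By that rule 3505 genes differed between the lines, which is 27.5% of those tested. Of these, 1569 (12.3%) were higher in resistant cells and 1936 (15.2%) were lower. Most differences were small, with a median size of 0.482 among called genes. At least 1 on the log2 scale was reached by 165 higher genes (1.29%) and 172 lower genes (1.35%), at least 2 by 15 and 18, and at least 3 by 1 and 3. The median change of all tested genes was -0.00535. Without resistant replicate 2 the counts were 999 higher and 1281 lower, and with each library corrected for GC content and transcript length they were 2674 (21.1%) and 2790 (22.0%) of the 12662 genes with both values. Counts of list members that moved by more than 1.5 times with that correction are given beside the list, and the shares of all genes at the main setting, 12.3% higher and 15.2% lower, are those to read list shares against. Genes named below as changed kept their call without each of the 4 libraries in turn, unless a sentence says otherwise.

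**Figure D1:**
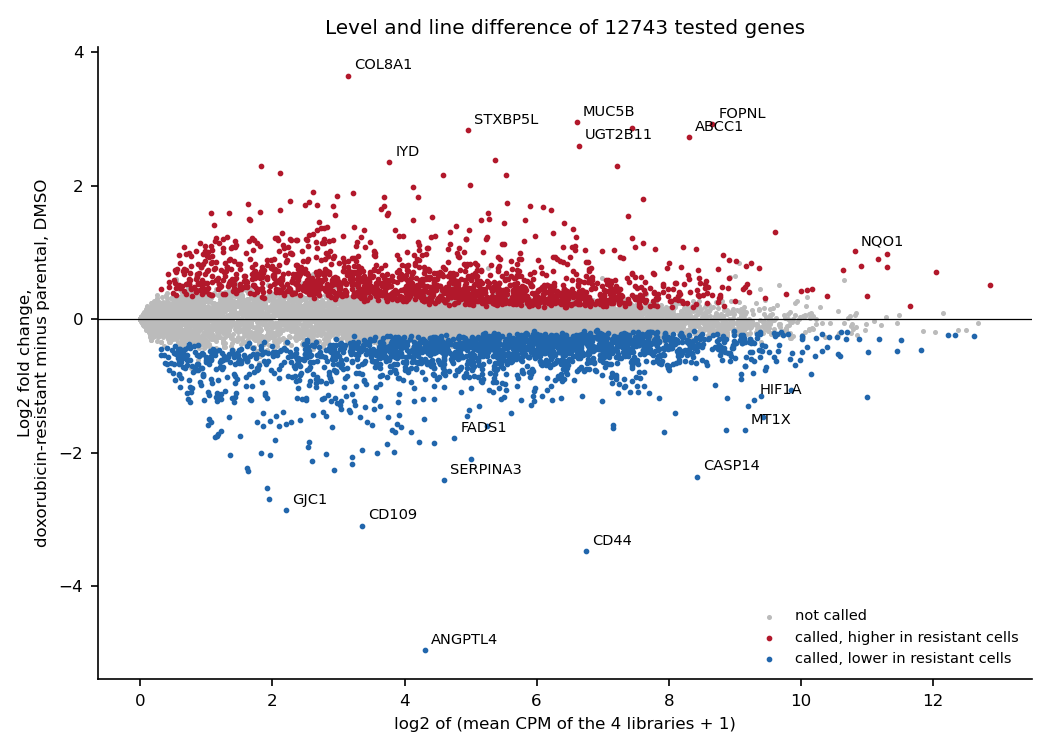
Each point is 1 of the 12743 tested genes, with its mean level in the 4 DMSO libraries on the x axis (log2 of CPM + 1) and its log2 change, resistant minus parental, on the y axis. Called genes, 1569 higher in red and 1936 lower in blue, lie on both sides of 0 at every level, and the largest fall is that of ANGPTL4.

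The largest rise belonged to COL8A1, a short-chain collagen of basement membranes. It had 0.162 and 0.451 CPM in parental cells and 15.8 and 14.8 CPM in resistant cells, a log2 change of 3.65 ± 0.14, adjusted p = 2.52e-15. Mucous and secretory genes were among the other large rises. MUC5B, a gel-forming mucin, had 17.3 and 25.1 CPM in parental cells and 139 and 204 CPM in resistant cells (2.95 ± 0.30, adjusted p = 4.48e-07). FCGBP, a protein secreted with mucus, rose by 2.16 from 7.04 and 8.35 to 32.9 and 43.2 CPM. CEACAM5, the carcinoembryonic antigen, had 6.03 and 6.03 CPM in parental cells and 28.6 and 25.2 CPM in resistant cells (1.99 ± 0.13, adjusted p = 7.20e-11). STXBP5L, a relative of tomosyn that restrains vesicle fusion, stood at 7.65 and 5.77 CPM in parental cells and 49 and 58.2 CPM in resistant cells (2.83 ± 0.15, adjusted p = 8.22e-13). By the rule that named them, the groups did not overlap for any of these genes.

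Enzymes and carriers made up much of the rest of the 25 largest rises, whose smallest change was 1.71. UGT2B11, a glucuronosyltransferase of steroid and lipid metabolism, had 30.7 and 24 CPM in parental cells and 161 and 179 CPM in resistant cells (2.60 ± 0.13, adjusted p = 3.91e-13). It shares long stretches of sequence with its UGT2B neighbours, so its reads may be divided among them. GLYATL2, which joins glycine to fatty acyl groups, rose by 2.38 to 63 and 73.4 CPM from 13 and 11.5. IYD, which recovers iodide from iodotyrosines, rose by 2.36 from 4.01 and 2.93 to 21.2 and 22.3 CPM. Ion handling was represented by SLC9A2, a sodium-proton exchanger (1.83), and SCNN1B, a subunit of the epithelial sodium channel (1.91). ATP10D, a lipid flippase, rose by 1.77. PAG1, an adaptor that recruits the Src-inhibiting kinase CSK, rose by 1.83, and the zinc-finger factor PLAGL1 by 1.76. DCLK1, a microtubule-binding kinase, rose by 1.71 from 1.46 and 1.77 to 8.34 and 6.85 CPM. Of these 25 genes, 8 lie in the runs of neighbouring genes described further on, among them SCNN1B and the drug pump ABCC1, whose values were 74 and 89.9 CPM in parental cells and 553 and 543 CPM in resistant cells.

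ANGPTL4 had the largest difference of any named gene. This secreted inhibitor of lipoprotein lipase had 32.9 and 42 CPM in parental cells and 0.190 and 0.269 CPM in resistant cells, a log2 change of -4.96 ± 0.12, adjusted p = 5.70e-19. CD44, the hyaluronan receptor used with CD24 to mark tumour-initiating breast cells, had 193 and 198 CPM in parental cells and 16.4 and 17 CPM in resistant cells (-3.47 ± 0.09, adjusted p = 3.25e-18). CD109, a membrane-anchored co-receptor that dampens TGF-beta signalling, had 19.2 and 15.5 CPM in parental cells and 0.990 and 1.31 CPM in resistant cells (-3.09 ± 0.15, adjusted p = 1.57e-13). In all 3 genes the higher resistant library was well under the lower parental one, but the rule that named them required no overlap. Other members of the same list of surface antigens fell by less. NT5E, the ecto-enzyme CD73 that makes adenosine, changed by -1.16, CD274, the checkpoint ligand PD-L1, by -0.83, and ALDH1A3, a retinal dehydrogenase, by -0.75. PROM1 (CD133) went the other way, from 1.74 and 1.32 to 4.38 and 5.38 CPM (1.22 ± 0.16, adjusted p = 1.79e-06). In that list 4 of 29 tested members rose (13.8%) and 9 fell (31%), with a median log2 change of -0.03.

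Several genes were nearly silent in resistant cells. GJC1, a gap-junction connexin, fell from 7.81 and 6.45 CPM to 0.114 and 0.115 CPM (-2.86 ± 0.13, adjusted p = 2.83e-14), which is close to the floor of 3 reads. MB21D1, the gene of cGAS, which detects DNA in the cytosol, fell from 6.11 and 5.29 to 0.0381 and 0.0385 CPM (-2.69 ± 0.17, adjusted p = 3.61e-11). DNAJC15, a co-chaperone of mitochondrial protein import, fell from 5.75 and 5.12 to 0.0762 and 0.154 CPM (-2.53 ± 0.14, adjusted p = 2.70e-12). For these 3 genes the change on the log2(CPM + 1) scale is smaller than the change in CPM. SLC28A3, a concentrative carrier of nucleosides and of nucleoside drugs, had 15.3 and 15.2 CPM in parental cells and 3.77 and 2.65 CPM in resistant cells (-1.96 ± 0.15, adjusted p = 6.92e-10). GALC, the lysosomal galactosylceramidase, changed by -1.98, and QPRT, which feeds tryptophan breakdown into NAD, by -2.17. Among calcium-binding and matrix genes, RCN1 of the endoplasmic reticulum changed by -2.25, the collagen hydroxylase LEPREL1 by -2.13, the endothelial-type receptor HEG1 by -2.09 and the calcification inhibitor MGP by -1.84. PADI3, which deiminates arginine in hair and skin proteins, changed by -1.81. None of the 25 largest falls lay in a run of neighbouring genes, and the smallest of them was -1.78.

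**Figure D2:**
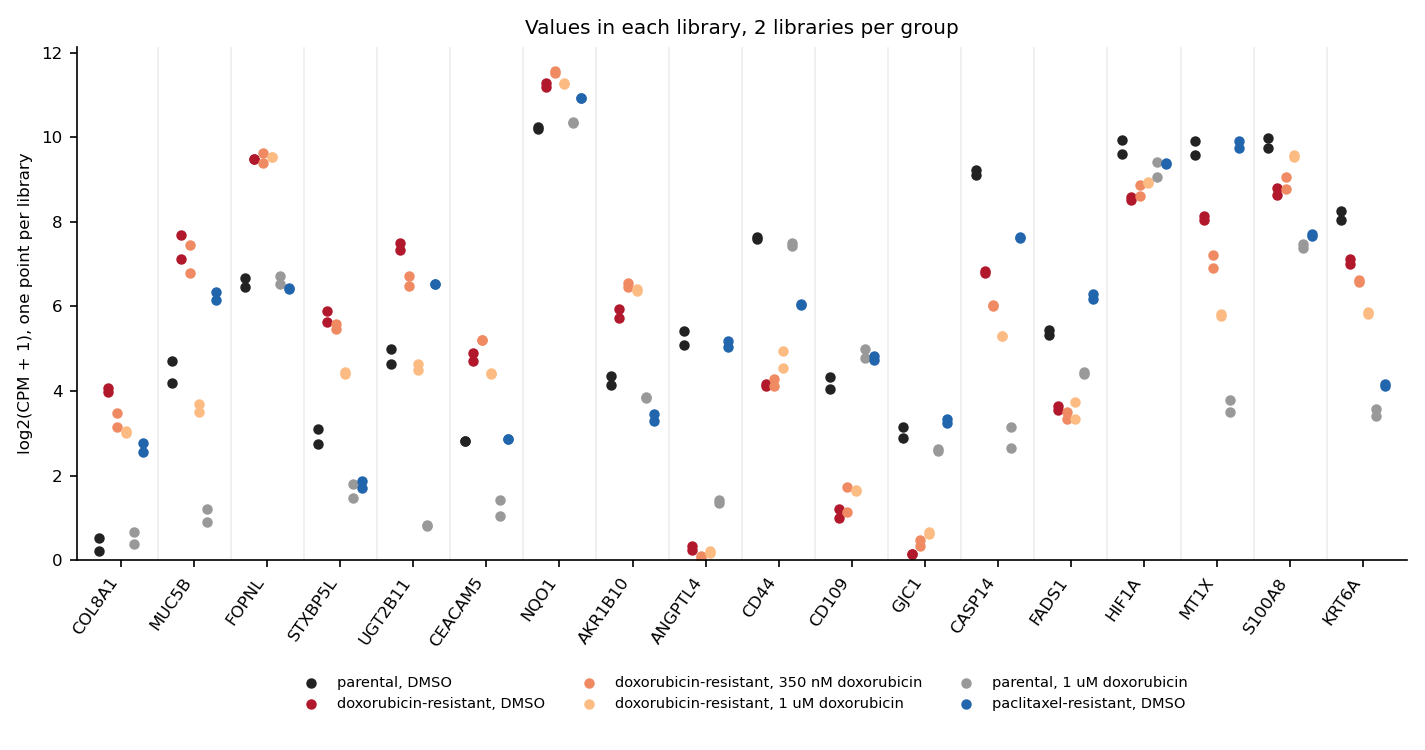
Values of 18 named genes are drawn as log2(CPM + 1), 1 point per library and 2 libraries per group, for parental cells (black in DMSO, grey in 1 µM doxorubicin), resistant cells (red in DMSO, orange in 350 nM and light orange in 1 µM doxorubicin) and paclitaxel-resistant cells (blue). CD44 is near 4 in resistant DMSO libraries and above 7 in parental ones, while MT1X, S100A8 and KRT6A are lower in resistant cells in DMSO and higher than in parental cells in 1 µM doxorubicin.

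Genes of oxygen sensing were lower in resistant cells. The system works through HIF1A and its relative EPAS1, which prolyl hydroxylases (EGLN genes) mark for destruction when oxygen is present, and which switch on glycolysis, glucose uptake and blood vessel growth when it is scarce. Of these regulators, 5 of 9 fell and 0 rose by limma (0 at an unadjusted p under 0.05, 0 by voom). Voom, a limma fit to the recovered whole reads that weights each value by its depth, is given beside a count of 0 as a further tool. HIF1A had 972 and 772 CPM in parental cells and 365 and 383 CPM in resistant cells (-1.21 ± 0.11, adjusted p = 1.88e-08), and EPAS1 changed by -0.23, a call that a fit to only the 4 DMSO libraries did not make (adjusted p = 0.227). ARNT2, a partner subunit of low level, fell from 2.71 and 2.74 to 0.647 and 0.808 CPM. HIF1A is also the most changed gene of a run of lowered neighbours on chromosome 14. The target genes moved in the same direction. Of the hypoxia targets, 18 of 30 fell (60.0%, against 15.2% of all genes) and 1 rose, and of the glycolytic genes 18 of 27 fell (66.7%) and 1 rose. The median log2 changes were -0.44 and -0.40. Where leaving out a library moved a count by more than 1.5 times, the lower HIF regulators numbered 3 without resistant replicate 1, and the higher hypoxia targets numbered 0 without each of the 4 libraries in turn.

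Within the hypoxia list, STC1, a secreted glycoprotein of calcium and phosphate balance, had 7.73 and 8.57 CPM in parental cells and 1.26 and 1.62 CPM in resistant cells (-1.91 ± 0.13, adjusted p = 4.21e-11). VEGFA, the main growth factor for blood vessels, had 249.6 and 277 CPM in parental cells and 132 and 131 CPM in resistant cells (-0.99 ± 0.08, adjusted p = 5.80e-10). PFKFB3, which makes the allosteric activator of phosphofructokinase, had 192 and 206 CPM in parental cells and 104 and 99.3 CPM in resistant cells (-0.96 ± 0.07, adjusted p = 2.14e-10). LOXL2, a collagen cross-linker, changed by -1.25, and the mitophagy receptor BNIP3L by -0.73. ERO1L, the oxidase that forms disulfide bonds in the endoplasmic reticulum, had 876 and 699 CPM in parental cells and 445 and 448 CPM in resistant cells (-0.81 ± 0.11, adjusted p = 4.99e-06). ERO1L lies in the lowered run on chromosome 14 that also holds HIF1A. CA9, the membrane carbonic anhydrase used as a hypoxia marker, was low throughout, at 0.729 and 1.16 CPM in parental cells and 0.152 and 0.192 CPM in resistant cells (-0.72 ± 0.15, adjusted p = 8.31e-04). In glycolysis the abundant enzymes shifted by smaller steps, with PKM at -0.46, LDHA at -0.49, PGK1 at -0.47 and ALDOA at -0.52. The less common isoenzymes ALDOC (-1.17) and ENO2 (-1.21) changed more. ALDOC stood at 8.46 and 11.1 CPM in parental cells and 3.62 and 3.85 CPM in resistant cells, and ENO2 at 1.46 and 2.0 CPM in parental cells and 0.190 and 0.154 CPM in resistant cells. The glucose carrier SLC2A1 changed by -0.53, the hexokinase HK2 by -0.45 and the lactate carrier SLC16A1 by -0.51. PDK3, a kinase that restrains pyruvate dehydrogenase, was the only glycolysis-list gene that rose (0.50 ± 0.09, adjusted p = 1.46e-04), and it lies in the raised run on the X chromosome.

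Promoter sequences of 4 fallen genes are shown because they carry the letters ACGTG, the core that HIF binds in hypoxia response elements. Each is the 250 bases before the annotated start, from RefSeq's table for GRCh38.p14, 5′ to 3′ on the gene's strand, with ACGTG or its reverse complement in capitals. ALDOC has 3 matches, of which a pair overlaps as CACGTG, which is also an E-box. The positions are chr12:6914330-6914579, plus strand for ENO2, chr17:28576896-28577145, minus strand for ALDOC, chr14:52695559-52695808, minus strand for ERO1L (named ERO1A in RefSeq) and chr9:35673678-35673927, plus strand for CA9.
ENO2: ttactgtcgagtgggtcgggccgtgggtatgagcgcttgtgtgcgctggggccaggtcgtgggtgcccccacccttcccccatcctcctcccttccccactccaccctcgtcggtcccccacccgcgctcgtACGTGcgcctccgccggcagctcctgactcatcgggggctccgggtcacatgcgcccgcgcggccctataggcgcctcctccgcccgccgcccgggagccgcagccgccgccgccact
ALDOC: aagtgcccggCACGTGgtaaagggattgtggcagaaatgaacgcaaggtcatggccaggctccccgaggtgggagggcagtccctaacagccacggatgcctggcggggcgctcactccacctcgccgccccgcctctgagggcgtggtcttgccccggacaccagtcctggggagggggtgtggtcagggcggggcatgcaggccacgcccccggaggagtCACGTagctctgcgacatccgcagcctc
ERO1L: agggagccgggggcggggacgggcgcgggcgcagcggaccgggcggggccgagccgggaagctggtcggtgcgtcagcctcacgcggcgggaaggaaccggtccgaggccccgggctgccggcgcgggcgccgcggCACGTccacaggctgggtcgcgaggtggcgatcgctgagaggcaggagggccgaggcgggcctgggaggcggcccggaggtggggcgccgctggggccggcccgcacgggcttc
CA9: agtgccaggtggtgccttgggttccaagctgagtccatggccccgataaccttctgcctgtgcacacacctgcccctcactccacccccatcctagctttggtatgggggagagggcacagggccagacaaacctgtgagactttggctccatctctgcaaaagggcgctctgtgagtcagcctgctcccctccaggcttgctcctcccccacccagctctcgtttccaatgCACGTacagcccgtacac

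Of the 57 tested hypoxia and glycolysis genes, 48 had a promoter in that table. The letters were found on either strand in 13 of 30 promoters of genes that fell, in the promoter of the 1 gene that rose (PDK3) and in 7 of 17 promoters of genes that were not called. They occur in 18.7% of all 27305 promoters in the table. A match describes these letters only and does not show that a factor is bound, and the authors' build is an older one, so these coordinates do not apply to their alignments.

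Metallothioneins, small cysteine-rich proteins that bind zinc and copper and scavenge oxidants, fell. MT1X had 762 and 965 CPM in parental cells and 279 and 263 CPM in resistant cells (-1.66 ± 0.11, adjusted p = 6.36e-11). MT2A had 721 and 960.2 CPM in parental cells and 361 and 318 CPM in resistant cells (-1.29 ± 0.11, adjusted p = 4.99e-09). MT1F changed by -0.65, and MT1G fell from 1.90 and 3.03 to 0.0762 and 0 CPM, near the floor. Both abundant genes separated the lines without overlap. So did all 172 genes that fell by at least 1 on the log2 scale, so this separation adds no support. In the list that also holds the zinc sensor MTF1 and zinc carriers, 0 of 7 tested members rose by limma (0 at an unadjusted p under 0.05, 0 by voom) and 5 fell (71.4%), with a median log2 change of -0.65. MT1 genes are near-identical copies, so reads may be divided wrongly among them, and all 4 metallothioneins lie side by side in a run of lowered genes on chromosome 16 (GNAO1 to ARL2BP), in which they are the strongest members. The promoters of both abundant genes are shown for their repeated metal response element cores, TGCACNC or TGCGCNC, which the factor MTF1 binds when zinc is high. They are the 250 bases before the start in the same RefSeq table (GRCh38.p14), at chr16:56682220-56682469, plus strand, and chr16:56608334-56608583, plus strand, with matches on either strand in capitals.
MT1X: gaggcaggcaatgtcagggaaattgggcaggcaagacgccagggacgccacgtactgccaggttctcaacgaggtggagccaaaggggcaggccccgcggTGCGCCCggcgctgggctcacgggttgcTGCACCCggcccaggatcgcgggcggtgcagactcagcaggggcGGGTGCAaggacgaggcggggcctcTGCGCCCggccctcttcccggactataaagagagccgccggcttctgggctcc
MT2A: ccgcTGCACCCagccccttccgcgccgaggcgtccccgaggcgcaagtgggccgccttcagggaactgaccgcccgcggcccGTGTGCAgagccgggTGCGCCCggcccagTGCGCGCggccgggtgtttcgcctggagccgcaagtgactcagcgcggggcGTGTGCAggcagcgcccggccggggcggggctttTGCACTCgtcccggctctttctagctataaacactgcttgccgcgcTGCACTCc

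MT1X held 4 matches, between 150 and 53 bases upstream of the start, and MT2A held 7, between 246 and 8 bases upstream. Of the 7 tested list members, 5 had a promoter in the table. The core was found in 2 of 3 promoters of genes that fell, in 1 of 2 that were not called, and in 24.7% of all promoters.

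Enzymes that reduce carbonyls and quinones, many of them targets of the oxidant-activated factor NRF2, were higher in resistant cells. In this list 14 of 37 tested members rose (37.8%) and 1 fell (2.70%), with a median log2 change of 0.16 (37.8% higher, against 12.3% of all genes). NQO1, which reduces quinones by a route that avoids the semiquinone, had 1173 and 1205 CPM in parental cells and 2497 and 2316 CPM in resistant cells (1.02 ± 0.07, adjusted p = 7.98e-11). AKR1B10, a reductase of retinal and other aldehydes, had 16.7 and 19.4 CPM in parental cells and 60.4 and 52.4 CPM in resistant cells (1.59 ± 0.10, adjusted p = 3.61e-11). AKR1C3, a reductase of steroids, prostaglandins and anthracyclines, had 51.8 and 51.7 CPM in parental cells and 141 and 126 CPM in resistant cells (1.35 ± 0.09, adjusted p = 1.01e-10). These groups did not overlap. Neither did those of any of the 165 genes that rose by at least 1 on the log2 scale, so this adds no support. AKR1C1 (0.80) and AKR1C2 (0.90) are close copies whose reads are hard to tell apart. Supply of NADPH for these reductases comes partly from PGD (0.48), and glutathione synthesis begins with GCLC (0.53). FTH1, the ferritin heavy chain that stores iron, had 3026 and 3374 CPM in parental cells and 5391 and 5049.5 CPM in resistant cells (0.71 ± 0.07, adjusted p = 4.74e-08). PIR, an iron-containing nuclear protein, rose by 0.90 and lies in the raised X run. SQSTM1, the autophagy receptor that can free NRF2 from its inhibitor, rose by 0.77 from 429.9 and 548 to 870.1 and 792 CPM. HMOX1, the haem oxygenase that is a standard NRF2 target, went the other way, at 152 and 198 CPM in parental cells and 127 and 108 CPM in resistant cells (-0.56 ± 0.11, adjusted p = 5.28e-04). The antioxidant response core TGACNNNGC was found in 1 of 10 promoters of genes that rose (PGD) and in 4 of 17 that were not called, against 11% of all promoters. Promoters were found for 27 of the 37 tested genes. Counts moved by more than 1.5 times with a library left out as follows: the lower carbonyl and quinone genes numbered 2 without parental replicate 2.

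Among genes of fatty acid synthesis and desaturation, 0 of 17 tested members rose by limma (0 at an unadjusted p under 0.05, 0 by voom) and 7 fell (41.2%), with a median log2 change of -0.27. FADS1, the delta-5 desaturase that makes arachidonic acid, had 39.1 and 42.4 CPM in parental cells and 10.7 and 11.5 CPM in resistant cells (-1.78 ± 0.11, adjusted p = 3.61e-11). SCD, which makes oleic acid, had 1436 and 1368 CPM in parental cells and 846 and 1094 CPM in resistant cells (-0.54 ± 0.10, adjusted p = 1.55e-04). The elongase ELOVL6 changed by -0.47 and the acetyl-CoA synthetase ACSS2 by -0.42. For cholesterol, 2 of 29 tested members rose (6.90%) and 10 fell (34.5%), with a median log2 change of -0.11, including the methylsterol oxidase MSMO1 (-0.65), squalene epoxidase SQLE (-0.44) and mevalonate kinase MVK (-0.87). In the list of PPAR targets, lipid droplets and fat oxidation, 9 of 33 tested members rose (27.3%) and 9 fell (27.3%), with a median log2 change of -0.01. CPT1A, the carnitine acyltransferase at the outer membrane, had 78.2 and 87.6 CPM in parental cells and 136 and 124 CPM in resistant cells (0.65 ± 0.08, adjusted p = 2.56e-06), SLC25A20, the acylcarnitine carrier, changed by 0.52, and CD36, a fatty acid uptake receptor, by 1.29. PDK4, which shuts pyruvate out of the citric acid cycle, rose from 2.87 and 2.90 to 9.79 and 11.2 CPM (1.56 ± 0.16, adjusted p = 9.20e-08). PLIN2 and PLIN3, coat proteins of lipid droplets, changed by -0.79 and -0.86, and the endothelial lipase LIPG by -0.92. The receptor PPARD changed by -0.70. With a library left out, the higher cholesterol genes numbered 1 without parental replicate 1, resistant replicate 1 or resistant replicate 2 and 4 without parental replicate 2, and the lower cholesterol genes numbered 6 without resistant replicate 1. The higher fatty acid genes numbered 4, the higher cholesterol genes 5 and the higher PPAR-list genes 14 with GC and length correction.

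Keratins, the filament proteins of epithelia, fell more often than they rose. Of these, KRT6A, KRT6B, KRT6C and KRT16 appear in activated or squamous cells. In this family 2 of 18 tested members rose (11.1%) and 10 fell (55.6%), with a median log2 change of -0.29. KRT6A had 263 and 305 CPM in parental cells and 137 and 126 CPM in resistant cells (-1.10 ± 0.15, adjusted p = 2.90e-06), and KRT16 changed by -0.87. KRT6B (-1.18) and KRT6C (-1.24) share most of their sequence with KRT6A, so these 3 values are not independent. The keratins of simple epithelium KRT8, KRT18 and KRT19 fell by less, with changes of -0.49, -0.30 and -0.29. Without parental replicate 2 none of these 3 was called, and without either resistant replicate KRT18 and KRT19 were not. They belong to the panel of epithelial and HER2-amplified cell markers, in which 0 of 8 tested members rose by limma (0 at an unadjusted p under 0.05, 0 by voom) and 4 fell (50.0%), with a median log2 change of -0.26. The 2 keratins that rose were KRT81, a hair-type keratin with 73.5 and 96.8 CPM in parental cells and 263 and 232 CPM in resistant cells (1.54 ± 0.13, adjusted p = 2.87e-09), and KRT5, a basal keratin with 0.243 and 0.193 CPM in parental cells and 0.838 and 0.538 CPM in resistant cells (0.47, not called without resistant replicate 1). CASP14, a protease of cornifying skin, had 548 and 602 CPM in parental cells and 113 and 110.2 CPM in resistant cells (-2.35 ± 0.10, adjusted p = 2.28e-14), and the skin protease KLK8 changed by -1.84. S100A8 and S100A9 form calprotectin, an inflammatory calcium-binding pair found in neutrophils and stressed keratinocytes. S100A8 had 853 and 1006 CPM in parental cells and 443 and 395 CPM in resistant cells (-1.14 ± 0.11, adjusted p = 2.53e-08), and S100A9 had 2452 and 3215 CPM in parental cells and 1263 and 1253 CPM in resistant cells (-1.16 ± 0.10, adjusted p = 4.67e-09). ANXA1, an annexin of epithelial and immune cells, changed by -0.83. In the S100 and annexin list 2 of 22 tested members rose (9.09%) and 5 fell (22.7%), with a median log2 change of -0.04. Where a left-out library moved a count by more than 1.5 times, the higher keratins numbered 1 without resistant replicate 1, and the lower keratins numbered 6 without parental replicate 2. The lower panel members numbered 1 without parental replicate 2 and 2 without resistant replicate 1 or resistant replicate 2, and the higher S100 and annexin genes numbered 1 without parental replicate 1 or resistant replicate 2. The lower S100 and annexin genes numbered 8 without parental replicate 1.

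In the list of luminal and apocrine identity 13 of 29 tested members rose (44.8%) and 4 fell (13.8%), with a median log2 change of 0.04. SCGB2A2, mammaglobin A, had 480.4 and 419.8 CPM in parental cells and 1019 and 1216 CPM in resistant cells (1.31 ± 0.13, adjusted p = 5.61e-08). Its partner secretoglobin SCGB1D2 changed by 1.44. AZGP1, a zinc-binding glycoprotein of apocrine secretions, had 1534 and 1896 CPM in parental cells and 3321 and 3379 CPM in resistant cells (0.97 ± 0.11, adjusted p = 1.47e-07). UGT2B28 (1.69) is a close copy of UGT2B11 and is uncertain for that reason. Of the mucins, 5 of 10 rose and 0 fell by limma (0 at an unadjusted p under 0.05, 0 by voom), with a median of 0.55, and apart from MUC5B the risen ones (MUC5AC, MUC15, MUC19 and MUC21) had under 1 CPM in parental cells. MUC19 rose from 0.364 and 0.709 to 4.57 and 7.65 CPM (2.18). ERBB2 itself was not called (0.07 ± 0.11, adjusted p = 0.716), and in its amplicon 2 of 14 tested members rose (14.3%) and 0 fell by limma (0 at an unadjusted p under 0.05, 0 by voom), with a median log2 change of 0.07, the largest being PGAP3, a remodeller of GPI anchors (0.76). With a library left out, the lower luminal and apocrine genes numbered 2 without parental replicate 1 and 1 without resistant replicate 1 or resistant replicate 2, and the higher amplicon genes numbered 1 without parental replicate 1, resistant replicate 1 or resistant replicate 2. The lower amplicon genes numbered 1 without parental replicate 1. The lower amplicon genes numbered 1 with GC and length correction.

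Growth factor ligands of the EGF family differed in both directions. These ligands bind EGFR and its relatives, and their cleavage from the membrane drives autocrine growth. In the list 5 of 16 tested members rose (31.2%) and 7 fell (43.8%), with a median log2 change of -0.10. EPGN, the epithelial mitogen epigen, had 799.8 and 609 CPM in parental cells and 446 and 415 CPM in resistant cells (-0.70 ± 0.14, adjusted p = 4.62e-04). HBEGF changed by -0.78, EREG by -0.69 and the receptor EGFR by -0.53. ERRFI1, a feedback inhibitor of EGFR, fell as well (-0.61). NRG4, a ligand of ERBB4, rose from 8.70 and 7.70 to 24.5 and 24.8 CPM (1.48 ± 0.11, adjusted p = 2.16e-10). Among genes that report ERK activity, 3 of 23 tested members rose (13%) and 10 fell (43.5%), with a median log2 change of -0.12. FOSL1, a subunit of AP-1, changed by -1.17, EGR1 by -0.76 and EPHA2 by -0.59, whereas SPRY4, a feedback inhibitor of the pathway, rose from 8.22 and 8.54 to 20.8 and 21.5 CPM (1.24 ± 0.10, adjusted p = 1.01e-09). After a library was left out, the higher ERBB-list genes numbered 3 without parental replicate 1 or resistant replicate 2, and the higher ERK-list genes numbered 1 without resistant replicate 2.

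Genes of insulin-like growth factor signalling were lower at several levels. In this list 0 of 11 tested members rose by limma (1 at an unadjusted p under 0.05, 0 by voom) and 5 fell (45.5%), with a median log2 change of -0.43. The receptor IGF1R changed by -0.43, and IRS1, the docking protein beneath it, had 49.6 and 48.3 CPM in parental cells and 18 and 20.5 CPM in resistant cells (-1.31 ± 0.11, adjusted p = 1.24e-09). The secreted binding proteins IGFBP3 (-1.20) and IGFBP5 (-0.79) also fell. Among TGF-beta and BMP genes 4 of 39 tested members rose (10.3%) and 12 fell (30.8%), with a median log2 change of -0.00085. The receptor TGFBR2 had 109 and 101 CPM in parental cells and 62 and 62.1 CPM in resistant cells (-0.75 ± 0.07, adjusted p = 4.83e-09), and the signal carrier SMAD3 changed by -0.60. FST, the activin trap follistatin, changed by -1.19, and the ligands BMP4 and BMP6 by -0.76 and -1.46. GDF15, a stress hormone of the same family, rose by 0.65. In the WNT and NOTCH list 6 of 45 tested members rose (13.3%) and 9 fell (20.0%), with a median log2 change of -0.01, near the shares of all genes (12.3% and 15.2%). WNT5A, a ligand of the branch that does not use beta-catenin, changed by -0.99, and the receptor NOTCH3 by -0.90. AXIN2, a feedback target of beta-catenin, rose by 0.70, as did the receptors FZD4 (0.66) and FZD6 (0.59). In the YAP and TEAD list 1 of 25 tested members rose (4.0%) and 8 fell (32%), with a median log2 change of -0.09, and its secreted targets CYR61 (-0.92) and CTGF (0.74) moved in opposite directions. By the same leave-out check, the higher IGF genes numbered 1 without parental replicate 2, and the higher TGF-beta and BMP genes numbered 2 without parental replicate 1 or resistant replicate 1. The lower TGF-beta and BMP genes numbered 7 without resistant replicate 2, and the higher YAP and TEAD genes numbered 2 without parental replicate 2. The lower YAP and TEAD genes numbered 5 without resistant replicate 2. The higher IGF genes numbered 2, the higher TGF-beta and BMP genes 10, the higher WNT and NOTCH genes 10 and the higher YAP and TEAD genes 3 with GC and length correction.

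Cytokines of the IL6 family signal through the shared receptor gp130 to JAK kinases and STAT3. IL6 had 15.5 and 16.5 CPM in parental cells and 4.42 and 4.96 CPM in resistant cells (-1.58 ± 0.14, adjusted p = 5.93e-09). LIF had 148 and 208 CPM in parental cells and 82 and 68.2 CPM in resistant cells (-1.22 ± 0.13, adjusted p = 7.73e-08). The receptor OSMR changed by -0.72. In this list 0 of 11 tested members rose by limma (0 at an unadjusted p under 0.05, 0 by voom) and 3 fell (27.3%), with a median log2 change of -0.06, and among other cytokine receptors 1 of 23 tested members rose (4.35%) and 5 fell (21.7%), with a median log2 change of -0.13, with IL7R at -1.54 and IL4R at -0.86. The kinases, STAT factors and SOCS inhibitors gave 2 higher and 6 lower of 24. STAT4, which responds to IL12 in lymphocytes, rose from 7.12 and 6.51 to 14 and 15.2 CPM (1.00 ± 0.12, adjusted p = 9.42e-07). Among STAT3 targets and acute phase genes, 6 of 36 tested members rose (16.7%) and 21 fell (58.3%), with a median log2 change of -0.35. SERPINA3, alpha-1-antichymotrypsin, had 39.2 and 40.0 CPM in parental cells and 6.51 and 6.85 CPM in resistant cells (-2.40 ± 0.13, adjusted p = 3.26e-12), and NNMT, which methylates nicotinamide, had 130.2 and 151 CPM in parental cells and 68 and 58.1 CPM in resistant cells (-1.15 ± 0.09, adjusted p = 1.01e-09). Against these, LCN2, the iron-siderophore binder lipocalin, had 43.2 and 46.4 CPM in parental cells and 122 and 125 CPM in resistant cells (1.44 ± 0.09, adjusted p = 3.68e-11), and TIMP1, a metalloproteinase inhibitor, changed by 0.99. HIF1A and VEGFA belong to this list too. In fits without a library, the higher other receptors numbered 0 without parental replicate 2 or resistant replicate 2, and the lower other receptors numbered 3 without resistant replicate 2. The higher JAK, STAT and SOCS genes numbered 1 without parental replicate 1 or resistant replicate 2, and the lower JAK, STAT and SOCS genes numbered 2 without resistant replicate 2. The higher other receptors numbered 2 and the lower other receptors 8 with GC and length correction.

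Interferon-stimulated and antigen presentation genes fell more often than they rose, while nucleic acid sensors and chemokines went both ways. Interferon-stimulated genes gave 2 higher and 14 lower of 44, with a median of -0.12. GBP1, a guanylate-binding GTPase, had 14.7 and 13.4 CPM in parental cells and 5.14 and 4.96 CPM in resistant cells (-1.31 ± 0.12, adjusted p = 7.22e-09). SAMD9, a restriction factor, changed by -0.85, IRF9, the DNA-binding part of the interferon-activated complex, by -0.80, and IFITM3 by -0.76. OAS2, a sensor of double-stranded RNA, rose by 1.19 although it lies in a lowered run on chromosome 12. In the list of nucleic acid sensors 4 of 22 tested members rose (18.2%) and 3 fell (13.6%), with a median log2 change of 0.01. The cGAS-STING pathway, in which cGAS reads DNA in the cytosol and STING relays the signal, was split. Beside the fall of MB21D1, TMEM173, which encodes STING, rose from 5.10 and 5.90 to 10.8 and 11.7 CPM (0.91 ± 0.13, adjusted p = 7.66e-06), and ENPP1, which degrades the messenger between them, rose by 0.78. Antigen presentation genes gave 0 higher by limma (0 at an unadjusted p under 0.05, 0 by voom) and 7 lower of 30, among them the peptide carrier TAP2 (-0.48) and the proteasome activators PSME1 (-0.47) and PSME2 (-0.48). Of chemokines and interleukin 1 genes 6 of 23 tested members rose (26.1%) and 3 fell (13%), with a median log2 change of -0.0043. Members that rose include CCL20 (0.60), and those that fell include CXCL17 (-1.05) and IL1RN (-0.88). Under the leave-out check, the lower antigen presentation genes numbered 4 without parental replicate 2, and the higher chemokine-list genes numbered 3 without resistant replicate 1. The higher sensors numbered 2 without resistant replicate 1. The higher interferon-stimulated genes numbered 4, the higher antigen presentation genes 1 and the lower sensors 5 with GC and length correction.

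Connexins, cadherins, integrins, laminins and matrix enzymes fell more often than they rose, and collagens did not. Among all tested genes falls also outnumbered rises (15.2% against 12.3%), and matrix enzymes were above both of these shares. GJB2, the connexin of epithelial gap junctions, had 419 and 376 CPM in parental cells and 155 and 144 CPM in resistant cells (-1.40 ± 0.09, adjusted p = 6.36e-11), and in its family 0 of 11 tested members rose by limma (0 at an unadjusted p under 0.05, 0 by voom) and 4 fell (36.4%), with a median log2 change of -0.24. E-cadherin, CDH1, changed by -0.45 and P-cadherin, CDH3, by -0.96, and in the list of cadherins, desmosomes and tight junctions 2 of 27 tested members rose (7.41%) and 6 fell (22.2%), with a median log2 change of -0.07. For integrins and laminins 2 of 24 tested members rose (8.33%) and 7 fell (29.2%), with a median log2 change of -0.17. The fibronectin receptor subunit ITGA5 changed by -0.82, the laminin receptor subunit ITGA3 by -0.87, and ITGB6, which frees TGF-beta from its latent form, by -0.92. SERPINE2, a secreted inhibitor of thrombin and urokinase, had 21.5 and 19.2 CPM in parental cells and 6.28 and 5.23 CPM in resistant cells (-1.66 ± 0.11, adjusted p = 6.36e-11). PLOD2, which hydroxylates collagen lysines, had 1017 and 757 CPM in parental cells and 515 and 522 CPM in resistant cells (-0.76 ± 0.14, adjusted p = 1.52e-04). Of matrix enzymes and glycoproteins 7 of 35 tested members rose (20.0%) and 11 fell (31.4%), with a median log2 change of -0.21. Among collagens, whose member COL8A1 had the largest rise, 4 of 29 tested members rose (13.8%) and 2 fell (6.90%), with a median log2 change of 0.08, an order that turned without parental replicate 1. Guidance molecules gave 4 higher and 12 lower of 46, led by EFNB2, an ephrin with 56.9 and 55.2 CPM in parental cells and 18.3 and 17.3 CPM in resistant cells (-1.60 ± 0.09, adjusted p = 2.42e-12). SNAI2, a repressor of epithelial genes, fell from 9.03 and 7.48 to 3.85 and 3.69 CPM (-0.95). When a library was dropped, the higher cadherin-list genes numbered 1 without parental replicate 2 or resistant replicate 2 and 0 without resistant replicate 1, and the lower cadherin-list genes numbered 3 without resistant replicate 1 or resistant replicate 2. The higher collagens numbered 1 without parental replicate 1, 7 without parental replicate 2 and 2 without resistant replicate 1, and the lower collagens numbered 0 without parental replicate 2 or resistant replicate 2. The higher integrins and laminins numbered 1 without parental replicate 2, resistant replicate 1 or resistant replicate 2, and the higher matrix genes numbered 4 without parental replicate 1 or resistant replicate 1. The higher guidance genes numbered 2 without resistant replicate 1 or resistant replicate 2. The lower integrins and laminins numbered 11 and the higher guidance genes 7 with GC and length correction.

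Neither gene of topoisomerase II, the drug's own target, was called at the main setting. TOP2A had 334 and 269.6 CPM in parental cells and 325 and 351 CPM in resistant cells and TOP2B had 185 and 149 CPM in parental cells and 168 and 185 CPM in resistant cells, with log2 changes of 0.17 ± 0.12, adjusted p = 0.354, and 0.09 ± 0.11, adjusted p = 0.645. TOP2A was called, with a log2 change of 0.17, once libraries were corrected for GC content and gene length (adjusted p = 0.0194). Among topoisomerases and repair genes 3 of 54 tested members rose (5.56%) and 6 fell (11.1%), with a median log2 change of 0.08. PALB2, which brings BRCA2 to breaks, rose by 0.91 and lies in the raised run on chromosome 16. For p53 targets 1 of 28 tested members rose (3.57%) and 6 fell (21.4%), with a median log2 change of -0.07, with CDKN1A, the cell cycle inhibitor p21, at 45.7 and 57.6 CPM in parental cells and 28.7 and 28.7 CPM in resistant cells (-0.82 ± 0.11, adjusted p = 2.48e-06). Of DNA replication genes 8 of 36 tested members rose (22.2%) and 5 fell (13.9%), with a median log2 change of 0.07, and of G2/M genes 4 of 30 tested members rose (13.3%) and 0 fell by limma (1 at an unadjusted p under 0.05, 0 by voom), with a median log2 change of 0.10, against 12.3% and 15.2% of all genes. PLK1, a mitotic kinase in the chromosome 16 run, changed by 1.04, and CDC25B, a phosphatase that starts mitosis, by 0.76. Among ABC transporters 6 of 33 tested members rose (18.2%) and 6 fell (18.2%), with a median log2 change of 0.0048. The shares of all genes were 12.3% and 15.2%. ABCC2, an apical exporter of conjugates, had 93.7 and 90.6 CPM in parental cells and 42.1 and 40.1 CPM in resistant cells (-1.14 ± 0.09, adjusted p = 1.86e-09), and ABCC5 changed by -0.86. ABCC6 was not pursued because pseudogene copies share its reads. ABCB1 did not reach the level needed for testing. In the leave-out fits, the higher repair genes numbered 6 without parental replicate 1, and the lower repair genes numbered 3 without resistant replicate 1 and 2 without resistant replicate 2. The higher p53 genes numbered 3 without parental replicate 1 and 0 without resistant replicate 2, and the higher replication genes numbered 4 without resistant replicate 1 or resistant replicate 2. The higher G2/M genes numbered 7 without parental replicate 1, and the higher ABC transporters numbered 10 without parental replicate 2. The higher repair genes numbered 13, the higher p53 genes 5, the lower p53 genes 10, the higher replication genes 13, the higher G2/M genes 12 and the higher ABC transporters 11 with GC and length correction.

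Genes of the integrated stress response and amino acid supply fell more often than they rose. In this list 2 of 32 tested members rose (6.25%) and 15 fell (46.9%), with a median log2 change of -0.20, with the alanine transaminase GPT2 at -0.91 and the leucine carrier SLC7A5 at -0.49. GPT2 lies in a lowered run on chromosome 16. Of cytosolic ribosomal proteins 1 of 80 tested members rose (1.25%) and 25 fell (31.2%), with a median log2 change of -0.17. RPLP0, a stalk protein, had 1151 and 1335 CPM in parental cells and 608 and 586 CPM in resistant cells (-1.05 ± 0.09, adjusted p = 3.24e-09), and RPS15A, the only member that rose, had 47.4 and 56.1 CPM in parental cells and 97.2 and 101 CPM in resistant cells (0.93 ± 0.14, adjusted p = 1.37e-05). Both lie in runs, RPLP0 in a lowered one and RPS15A in a raised one. Genes encoded in the mitochondrion gave 1 higher and 0 lower by limma (0 at an unadjusted p under 0.05, 0 by voom) of 13, with a median of 0.62. Their share of reads was 0.511% and 0.929% in parental cells and 1.15% and 1.01% in resistant cells, so parental replicate 1 was the lowest of the 4 libraries. Among lysosomal and autophagy genes 7 of 46 tested members rose (15.2%) and 2 fell (4.35%), with a median log2 change of 0.05. SMPD1, the acid sphingomyelinase, rose from 6.11 and 5.67 to 13.9 and 14.9 CPM (1.16). Heat shock genes gave 2 higher and 5 lower of 28, and HSPB8, a small chaperone of selective autophagy, rose by 1.12. Leaving out a library moved some counts: the higher stress response genes numbered 1 without parental replicate 2, resistant replicate 1 or resistant replicate 2, and the lower stress response genes numbered 8 without parental replicate 2 and 9 without resistant replicate 2. The lower ribosomal genes numbered 9 without parental replicate 2 and 11 without resistant replicate 2, and the higher mitochondrial genes numbered 0 without parental replicate 1, resistant replicate 1 or resistant replicate 2 and 6 without parental replicate 2. The higher lysosomal genes numbered 3 without resistant replicate 1, and the lower lysosomal genes numbered 6 without parental replicate 2 and 1 without resistant replicate 2. The higher heat shock genes numbered 4 without parental replicate 1 and 1 without resistant replicate 2, and the lower heat shock genes numbered 3 without resistant replicate 2. The higher stress response genes numbered 4, the higher ribosomal genes 3, the higher lysosomal genes 19, the lower lysosomal genes 6 and the lower heat shock genes 9 with GC and length correction.

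Among genes of the unfolded protein response and ER chaperones 0 of 22 tested members rose by limma (1 at an unadjusted p under 0.05, 0 by voom) and 7 fell (31.8%), with a median log2 change of -0.07. Of proteasome subunits 0 of 38 tested members rose by limma (1 at an unadjusted p under 0.05, 0 by voom) and 7 fell (18.4%), with a median log2 change of -0.12. In the BCL2 family of death regulators 1 of 19 tested members rose (5.26%) and 6 fell (31.6%), with a median log2 change of -0.18. Of glutathione transferases and peroxidases, which detoxify electrophiles and peroxides, 3 of 15 tested members rose (20.0%) and 0 fell by limma (0 at an unadjusted p under 0.05, 0 by voom), with a median log2 change of 0.10. Among G1/S cyclins and CDK inhibitors 2 of 23 tested members rose (8.70%) and 4 fell (17.4%), with a median log2 change of 0.03. For NF-kB subunits and feedback targets 2 of 24 tested members rose (8.33%) and 4 fell (16.7%), with a median log2 change of 0.02. Of carriers that take up organic ions 2 of 17 tested members rose (11.8%) and 4 fell (23.5%), with a median log2 change of -0.02. Among mesenchymal transcription factors and cytoskeleton genes 1 of 13 tested members rose (7.69%) and 3 fell (23.1%), with a median log2 change of -0.18. For tubulins and proteins that bind microtubules 2 of 23 tested members rose (8.70%) and 3 fell (13%), with a median log2 change of -0.02. Of nuclear genes for the respiratory chain and ATP synthase 5 of 79 tested members rose (6.33%) and 6 fell (7.59%), with a median log2 change of -0.02. With a library left out or with GC and length correction, each of these 20 counts except the lower G1/S and the lower mesenchymal genes moved by more than 1.5 times at least once.

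**Figure D3:**
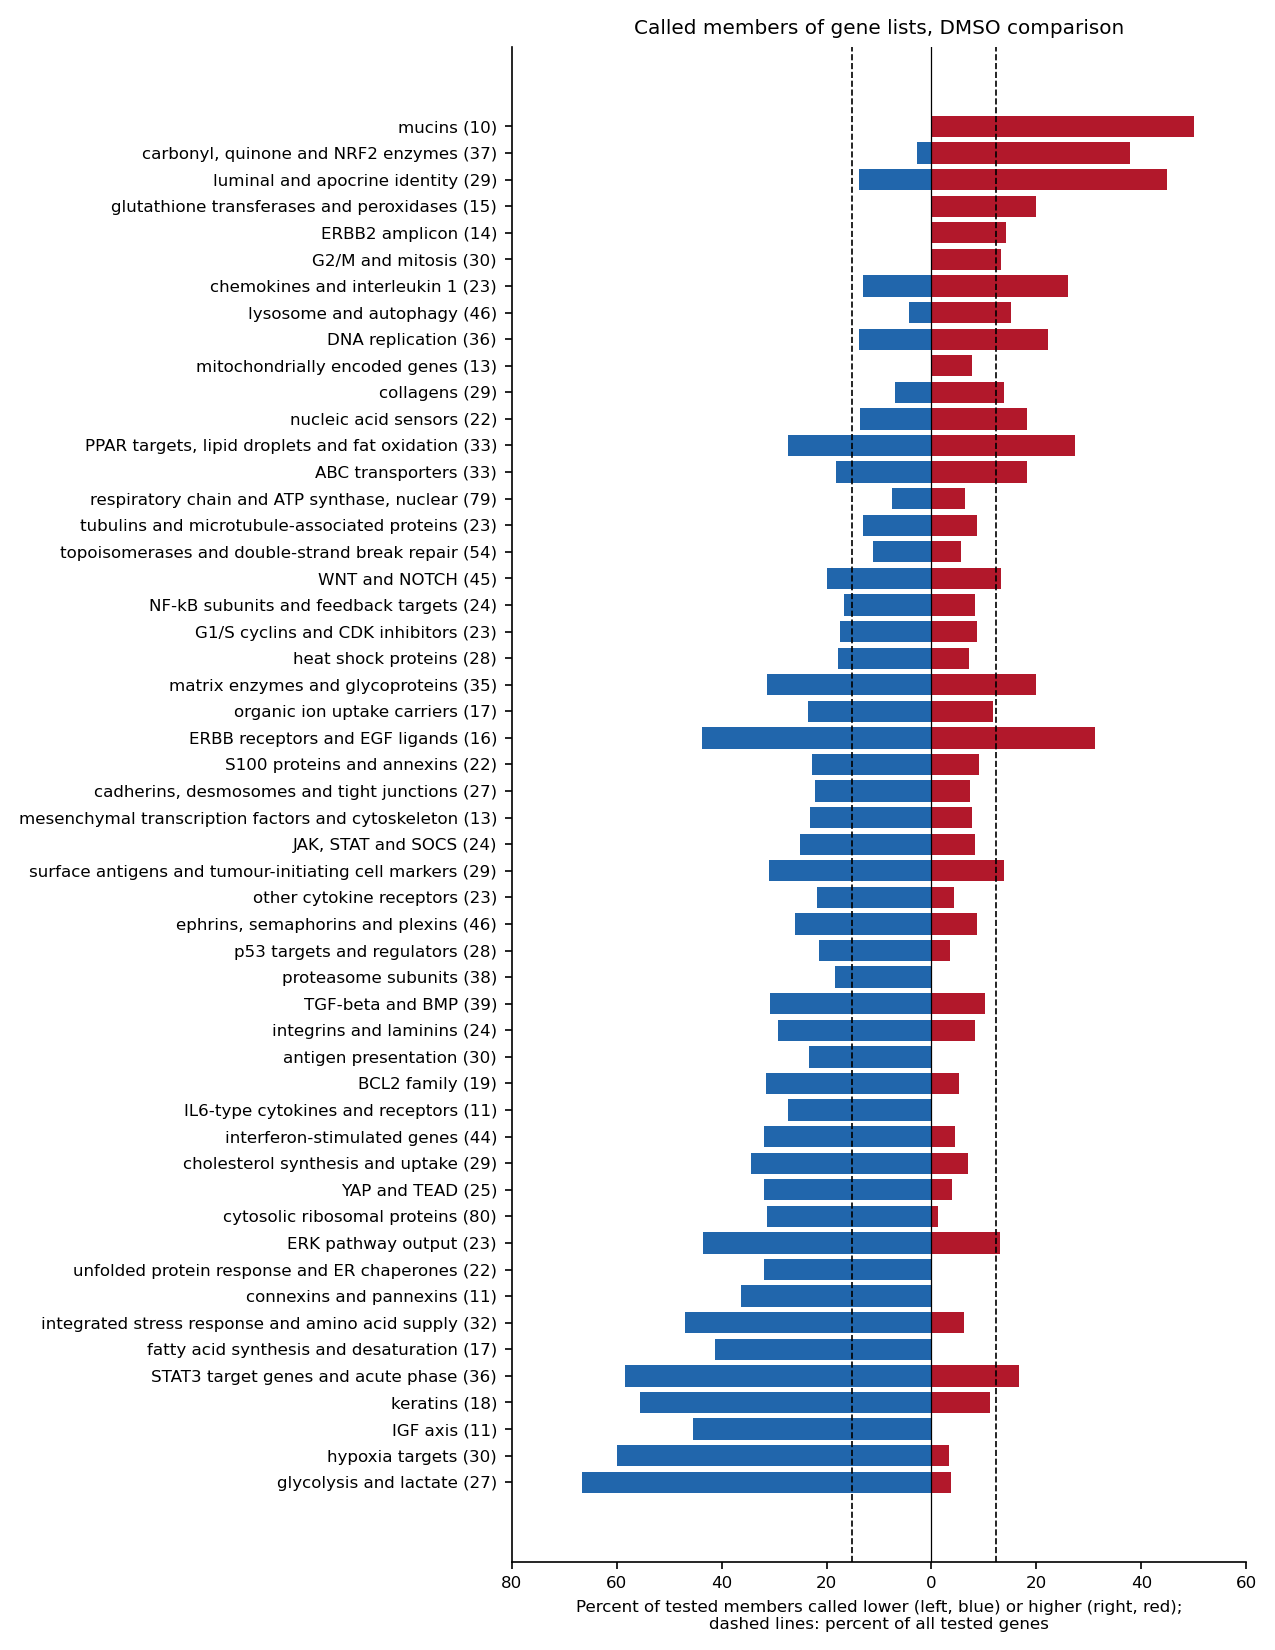
For the 52 gene lists with at least 10 tested members, bars give the percent of tested members called lower (blue, leftward) or higher (red, rightward) in resistant cells, with the number tested in brackets; dashed lines mark the 15.2% and 12.3% of all tested genes. Glycolysis (66.7% lower) and hypoxia targets (60.0% lower) are far to the left of the lower line, and mucins (50.0% higher) are to the right of the upper one.

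Called genes formed runs along some chromosomes. Genes were set in RefSeq order (GRCh38.p14, used here only for neighbours), and a run was any stretch in which windows of 15 consecutive tested genes held at least 12 called in 1 direction. There were 14 runs on 7 chromosomes, 5 higher and 9 lower in resistant cells. They hold 560 genes, which is 4.43% of the 12641 tested genes with a place. Of all called higher genes 157 (10.0%) and of all called lower genes 298 (15.4%) lie in a run of that direction. The shares among changes of at least 1 on the log2 scale were 19.4% of the higher genes and 6.40% of the lower ones. Runs are defined by their called genes, so these shares describe them and do not test whether called genes cluster. The 4.43% of all placed genes pools runs of both directions. Some genes named in earlier paragraphs lie in a run without this being said there.

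The strongest run was on chromosome 16, from NTAN1 to LCMT1, where 50 of 58 genes rose with a median of 0.94. Inside it the change was not uniform. NDE1, a dynein regulator of neuronal migration and mitosis, had 37 and 45.5 CPM in parental cells and 314 and 298 CPM in resistant cells (2.87 ± 0.10, adjusted p = 2.20e-16), its neighbour FOPNL, a centrosome protein, had 100.2 and 87.2 CPM in parental cells and 716 and 713 CPM in resistant cells (2.92 ± 0.11, adjusted p = 6.87e-16), and ABCC1 is the next gene. KIAA0430, on the other side of NDE1, changed by 1.80, and most genes farther along changed by about 1. NOMO2 (2.30) and NOMO3 (1.85) are near-identical copies and uncertain. The first 3 and last 3 genes of the run did not rise, since windows may begin or end with such genes. Elsewhere on the same chromosome 2 runs were lower, ZNF720 to ADCY7 (16 of 20 genes, median -0.47) and GNAO1 to ARL2BP (12 of 16, -0.36). The exporter ABCC11 rose by 0.59 inside the former, against its neighbours. The latter holds the metallothioneins and fell to 8 called genes without resistant replicate 2.

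On the X chromosome, GYG2 to TAB3 (60 of 69 genes, median 0.54), DYNLT3 to CDK16 (21 of 26, 0.51) and EBP to TFE3 (12 of 15, 0.47) were higher. In the first, MID1, a ubiquitin ligase on microtubules, had 6.39 and 5.09 CPM in parental cells and 17.5 and 20.1 CPM in resistant cells (1.56 ± 0.11, adjusted p = 1.33e-10). The count in EBP to TFE3 was 4 without parental replicate 1 and 6 without resistant replicate 1, and that in DYNLT3 to CDK16 was 14 without either resistant replicate. Over the whole X chromosome 34% of 424 tested genes were higher, against 12.3% of all genes. A run on chromosome 19 made mostly of zinc-finger genes, ZNF528 to NDUFA3, was higher as well (14 of 18, 0.45), but had only 3 called genes without parental replicate 2 and 7 without resistant replicate 2.

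The share of lowered genes was highest on chromosomes 14, 22, 12 and 16. On chromosome 12, HCFC2 to TRAFD1 (51 of 63 genes, median -0.50) and RPL6 to FBRSL1 (98 of 122, -0.53) are separated by a single tested gene, HECTD4. They hold CORO1C, an actin-binding coronin (-1.09), PXN, the focal adhesion scaffold paxillin (-1.10), and RPLP0. On chromosome 14 there were 3 lowered runs, and over the whole chromosome 53.4% of 431 genes were lower, with a median of -0.31. These runs were FBXO33 to CDKL1 (18 of 24 genes), TMX1 to SYNE2 (47 of 58), which holds HIF1A, and ARG2 to ACOT4 (27 of 33). Without parental replicate 1 the first had 7 called genes and the second 26, and without resistant replicate 1 the first had 11. Chromosome 22 had 43.7% of 302 genes lower (median -0.26), with 1 run, C1QTNF6 to MAFF (13 of 18), which had 5 called genes without parental replicate 2 and 6 without resistant replicate 2. It holds LGALS1, galectin 1 (-1.20), and RAC2, a GTPase of blood cells (-0.87). A run on chromosome 8, ZNF703 to ADAM32 (16 of 20 genes, -0.39), begins with ZNF703, a luminal co-repressor with a change of -0.74. DNA copy number was not analysed here.

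**Figure D4:**
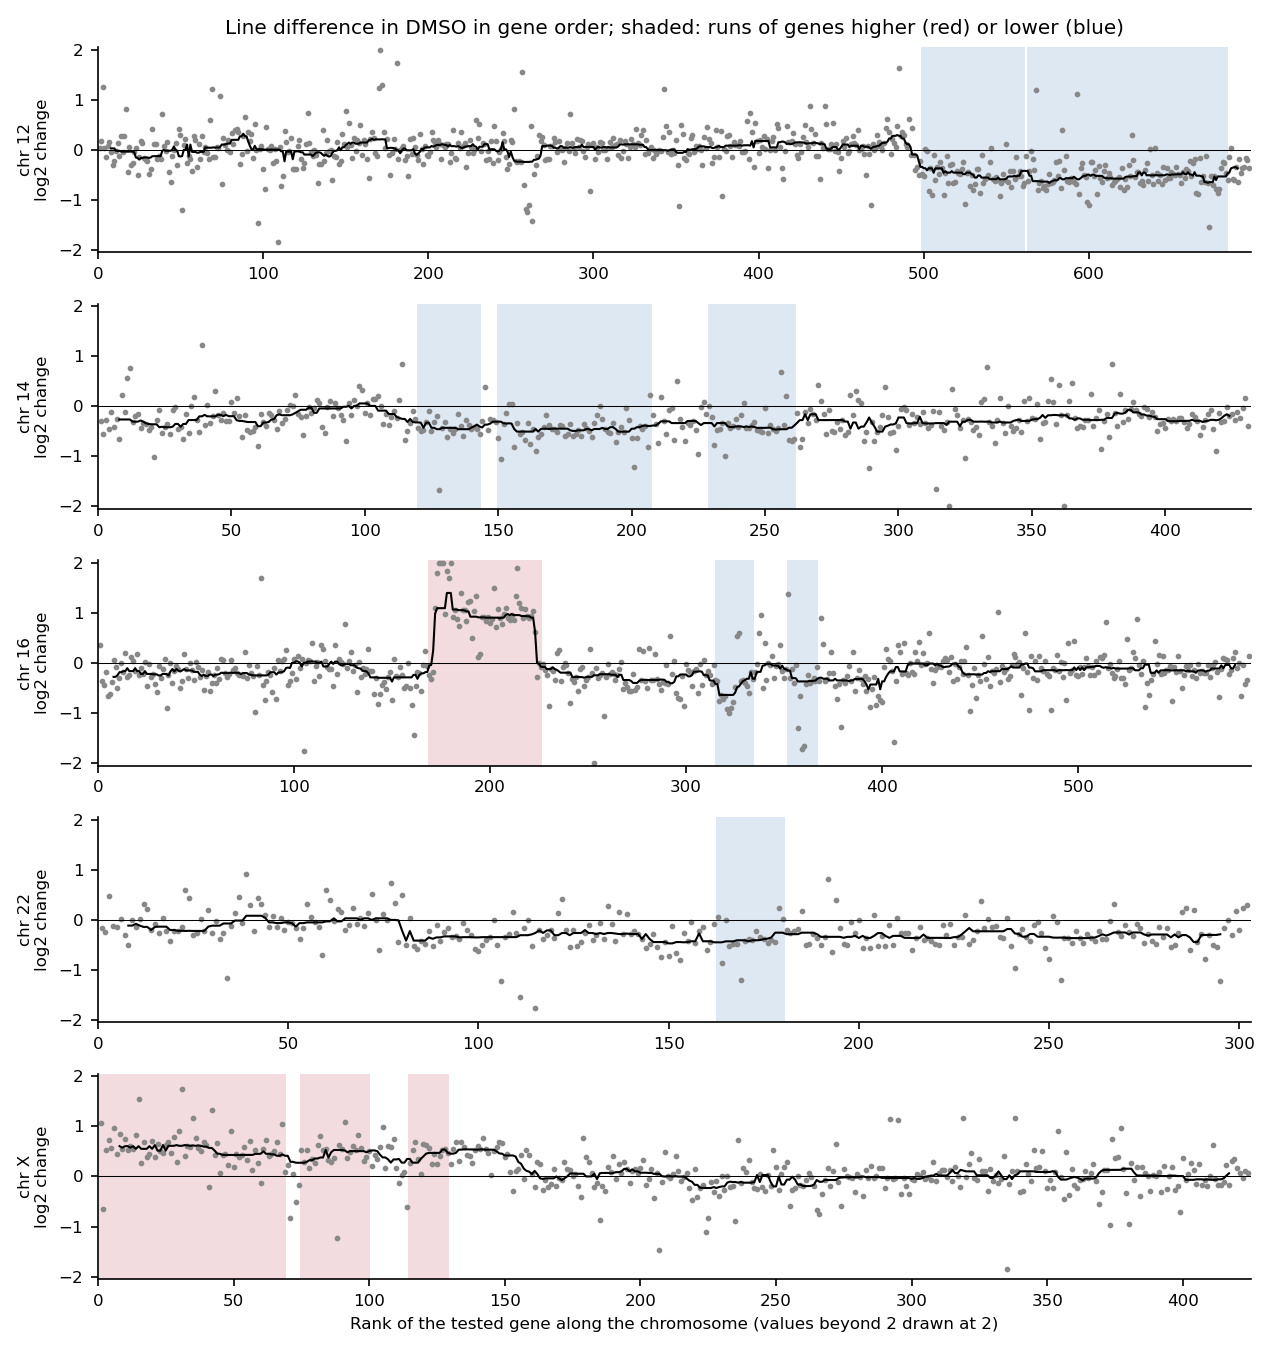
Grey points are tested genes of chromosomes 12, 14, 16, 22 and X in RefSeq order, with log2 change on the y axis (drawn at 2 where larger) and the median of 15 neighbours as a black line; shading marks runs of higher (red) or lower (blue) genes. The line is near 1 in the raised run of chromosome 16 and under 0 along most of chromosome 14.

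Each run was then followed in all 30 libraries, as the median over its genes of the log2 value minus that gene's mean over all libraries. In the raised run of chromosome 16, the 6 resistant libraries lay at 0.74 to 0.82, the 14 parental ones at -0.28 to -0.03 and the 10 paclitaxel-resistant ones at -0.29 to -0.17. This run set the doxorubicin-resistant line apart from both other lines, as did some lowered runs named below. The large X run had another pattern. Resistant libraries lay at 0.26 to 0.44, paclitaxel-resistant ones at 0.24 to 0.31 and parental ones at -0.52 to -0.21, so both resistant lines were above the parental one. In RPL6 to FBRSL1 the resistant libraries lay at -0.44 to -0.36, under all parental ones (-0.06 to 0.19) and all paclitaxel-resistant ones (0.0012 to 0.12). The same held in HCFC2 to TRAFD1, ARG2 to ACOT4, ZNF703 to ADAM32 and C1QTNF6 to MAFF, and narrowly in FBXO33 to CDKL1. In the metallothionein run the resistant libraries lay at -0.39 to -0.25 and overlapped the parental range of -0.33 to 0.09.

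**Figure D5:**
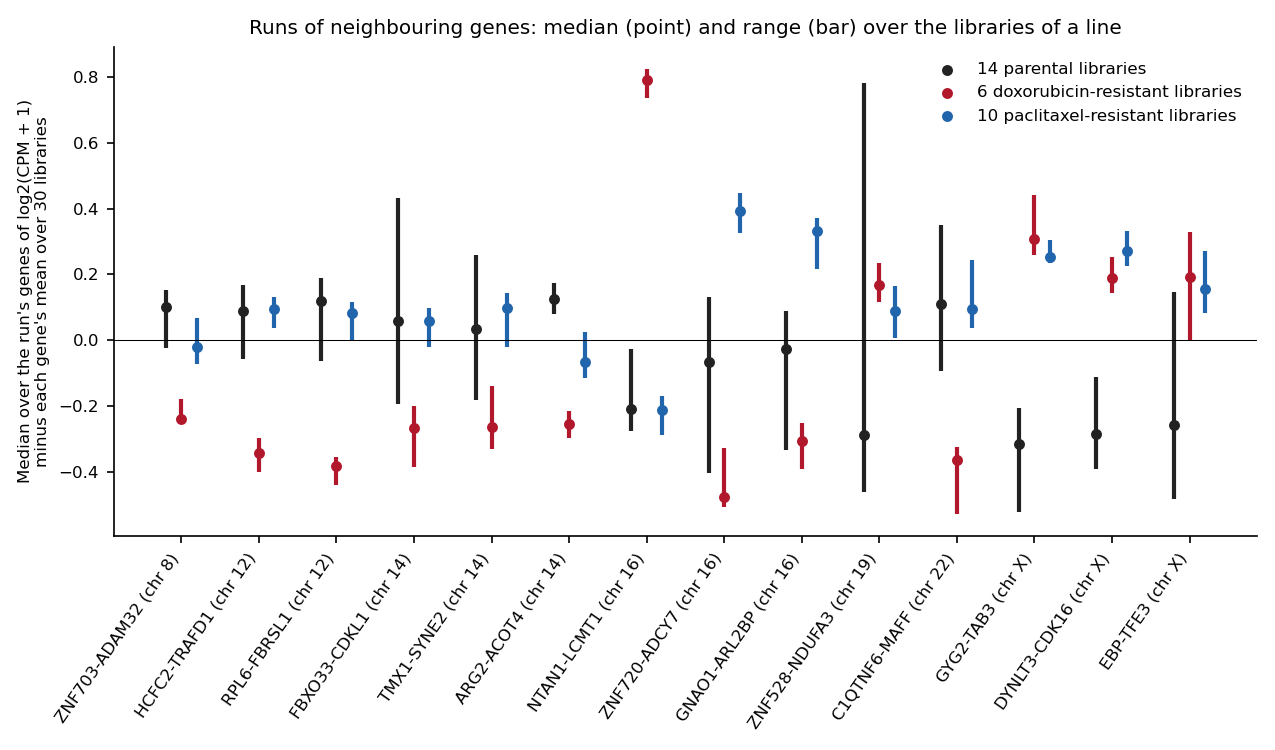
For each of the 14 runs, the vertical bar spans the lowest to the highest library of a line and the point is the median library, in units of log2(CPM + 1) minus each gene's mean over 30 libraries. The 6 doxorubicin-resistant libraries stand clear of both other lines in several runs, among them the chromosome 16 run from NTAN1 to LCMT1. They stand beside the paclitaxel-resistant libraries in the X run from GYG2 to TAB3. The bars include the DMSO libraries from which the runs were found.

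The same line pair was compared in 1 µM doxorubicin, in libraries that do not enter the DMSO line means. Those libraries do help to set each gene's spread, so both comparisons are not fully independent. Under the drug 9104 genes differed (71.4%), 4958 higher (38.9%) and 4146 lower (32.5%) in resistant cells. Of the 165 genes higher by at least 1 in DMSO, 143 were also called higher and 7 lower under the drug, and their median change went from 1.22 to 1.42. Of the 172 lower genes, 110 were also called lower and 26 higher, and the median went from -1.25 to -0.52. The test of the difference between both line differences called 7434 genes (58.3%), among them 92 of the 165, of which 42 were smaller or opposite under the drug, and 126 of the 172, of which 112 were smaller or opposite. The 165 and 172 genes were chosen for large DMSO differences, and that test reuses the same DMSO values. Such a choice favours smaller differences under the drug, so these counts and medians only describe the genes. The same holds for single genes named for a large DMSO change. COL8A1 kept the direction of its difference (2.51 ± 0.14, adjusted p = 2.77e-13 under the drug, against 3.65 in DMSO). CD44 (-2.73 ± 0.09, adjusted p = 6.25e-17, against -3.47) and ABCC1 (3.73 ± 0.09, adjusted p = 3.02e-19, against 2.73) did so too. The difference was smaller under the drug for COL8A1 and CD44 and larger for ABCC1. ANGPTL4 had 1.54 and 1.69 CPM in parental and 0.126 and 0.155 CPM in resistant cells under the drug, a change of -1.20 ± 0.12, adjusted p = 5.98e-09, and the line difference in DMSO minus that under the drug was -3.76 ± 0.17, adjusted p = 7.73e-14. HIF1A differed by -0.30 ± 0.11, adjusted p = 0.024 under the drug, a smaller difference than in DMSO (DMSO minus drug, -0.91 ± 0.16, adjusted p = 4.43e-05). NQO1 differed by 0.92 ± 0.07, adjusted p = 3.82e-11, with 0.09 ± 0.10, adjusted p = 0.433 for DMSO minus drug.

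Paclitaxel-resistant cells in DMSO gave a direct test of whether a level differed between the resistant lines, and 4338 genes did (34.0%). Differences are given as doxorubicin-resistant minus paclitaxel-resistant. COL8A1 stood at 4.93 and 5.78 CPM in the latter, between the parental and the doxorubicin-resistant level (1.36 ± 0.14, adjusted p = 5.20e-08). ANGPTL4, at 32.1 and 35.4 CPM, was near its parental level and higher than in doxorubicin-resistant cells (-4.82 ± 0.12, adjusted p = 1.08e-18). CD109 was at 25.8 and 27.3 CPM, above both parental values (-3.68 ± 0.15, adjusted p = 2.60e-15). CD44, at 65.1 and 65.4 CPM, was between the other lines (-1.90 ± 0.09, adjusted p = 1.23e-13). The metallothionein MT1X stood at 958 and 854 CPM (-1.74 ± 0.11, adjusted p = 1.46e-11) and the connexin GJC1 at 8.47 and 9.14 CPM (-3.14 ± 0.13, adjusted p = 2.60e-15). KRT6A, at 16.4 and 16.9 CPM, was lower still than in doxorubicin-resistant cells (2.91 ± 0.15, adjusted p = 1.47e-13). AKR1B10 was at 8.85 and 10.0 CPM and FOPNL at 84.4 and 85.5 CPM, each below its doxorubicin-resistant level (2.46 ± 0.10, adjusted p = 5.63e-15, and 3.06 ± 0.11, adjusted p = 1.34e-16).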

How the data were processed

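Messenger RNA was sequenced from 30 SUM190 libraries in 15 groups of 2. Per the submitters' processing notes, STAR 2.5.1b, edgeR and GRCh37 (hg19) were used. Which read counter and annotation they used is not given in the sources used here. Values of 20114 gene rows were deposited as log2(CPM + 1), made by the authors with TMM-scaled CPM, per the table's name. All values were whole multiples of 1 read's worth within 0.01, which gave 18443749 to 32669995 reads per library and a floor of 3 reads at 0.0947 to 0.163 CPM.

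Values were tested as deposited with limma 3.58.1 in R 4.3.3: a means model of 15 groups, so that each gene has 1 spread over all of them, with trend and robust moderation (degrees of freedom: 15 residual, 8.08 prior at the median), two-sided, on genes with at least 1 CPM in at least 2 libraries. Calls needed an adjusted p (Benjamini-Hochberg, over 12743 genes) under 0.05. The comparisons share parental or resistant DMSO libraries, except that in 1 µM doxorubicin. All of them share each gene's spread. The procedure was run on simulated data with independent genes and, beyond counting error, the same spread of a gene in all groups. Parental replicates here differed more than resistant ones and followed GC content, so that simulation does not show how reliable these calls are. GC content and length were found for 99.4% of tested genes.

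Genes named are members of 59 lists, the 25 called genes with the largest rises and the 25 with the largest falls (mean of at least 5 CPM in 1 group, no overlap of replicates), the ends and 3 largest changes of runs, and cell markers; some that meet these rules are not reported here. HECTD4, which separates a pair of runs, was named from the gene order after its value was seen. The members and lists were chosen with earlier results of these data known. Alternatives were another pseudocount, no filter, other scaling, a replicate block, GC correction, fewer groups in the fit and leaving out each library, which leaves a lone sample assumed to vary like the other groups. The voom fit and the crossed block were added after the data were seen. Tables were made in Python 3.11.15 with pandas 2.3.3.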

Additional observations from a re-analysis of the deposited data

Results flagged for a closer look

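Of 1489 named and list genes, 124 (8.33%) were called in opposite directions in the DMSO comparison and in the comparison of the same lines in 1 µM doxorubicin, and 10 of these changed by at least 1 on the log2 scale both times. Over all tested genes 738 (5.79%) had such opposite calls. The limma test of the difference between both line differences, called for 58.3% of all genes, was called for each of the 10, but opposite calls chose them, so the values below describe them and test nothing further. Of the 10, 9 were lower in resistant cells in DMSO and higher under the drug. The values that follow are the line difference in DMSO minus that under the drug. Among genes of cornifying and activated epithelium, CASP14 had -4.74 ± 0.14, adjusted p = 3.06e-17, KRT6A had -3.45 ± 0.21, adjusted p = 4.90e-12 and KRT4, a keratin of moist surfaces, had -3.07 ± 0.18, adjusted p = 3.31e-12. CASP14 went from 548 and 602 CPM in parental cells in DMSO to 7.95 and 5.30 CPM in the drug, and from 113 and 110.2 to 38.2 and 38.3 CPM in resistant cells. KRT6A was at 9.64 and 10.8 CPM in parental cells under the drug and at 57.4 and 55.2 CPM in resistant cells.

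Metallothioneins had the same pattern, with -3.81 ± 0.16, adjusted p = 1.31e-14 for MT1X and -2.57 ± 0.16, adjusted p = 1.02e-11 for MT2A. MT1X was at 12.7 and 10.4 CPM in parental cells under the drug and at 53.6 and 55.5 CPM in resistant cells. The calprotectin genes had -3.28 ± 0.16, adjusted p = 1.29e-13 for S100A8 and -2.48 ± 0.14, adjusted p = 2.74e-12 for S100A9. For ADAM19, a metalloproteinase that sheds growth factors, the value was -3.01 ± 0.31, adjusted p = 3.07e-08, and for NNMT it was -2.21 ± 0.13, adjusted p = 3.53e-12. HSPB8 was the gene with the opposite order, higher in DMSO and lower under the drug, with 2.49 ± 0.13, adjusted p = 5.08e-13.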

How the results depend on the processing

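The 3505 calls of the DMSO comparison became 5464 (2674 of them higher) after each library was corrected for GC content and transcript length, and 5453 (2663 higher) with that correction and a replicate block. A fit to only the 4 libraries compared gave 2257, of which 1028 were higher and 1229 lower. Leaving out each library in turn gave 2280 to 3332 calls, 999 to 1463 higher and 1281 to 1960 lower, with the fewest without resistant replicate 2. The last 2 kinds of fit also have fewer samples. The cause of these shifts was not tested. A replicate block without correction gave 3419, a crossed block 3423, median-of-ratios scaling 3512, a pseudocount of 0.25 CPM 3500, testing every gene row 3286, only the 2 lines compared 2908, and voom on recovered reads 3610. The labels do not say whether replicate numbers pair the groups. Deviations of same-numbered parental and resistant libraries correlated at -0.24 across genes, which cannot settle it. The comparison of both resistant lines gave 7111 calls from its 4 libraries alone. Of 198 genes given with values, ERBB2 (-0.10 to 0.24 with a library left out, adjusted p = 0.59 in limma at the lower end, without parental replicate 1) and TOP2B (-0.067 to 0.24, adjusted p = 0.764 at the lower end, without parental replicate 2) changed sign. Between 0 and 37 of 118 list counts moved by more than 1.5 times per setting, most with the GC correction or without resistant replicate 2. A count model in edgeR, listed as an alternative, was not run, because the deposited values are log2. Depth limits genes near 0.1 CPM, where a few reads decide a value.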
